A study of Mus musculus with 4 samples.

Results

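Eno3, Pygm, Pfkm, Pgam2 and Gys1 encode the muscle forms of enzymes that build glycogen, break it down or carry its glucose through glycolysis. They were set beside Eno1, Eno2, Pygl and Ldhb, the forms named for other tissues or for cells in general, in mouse ureter with and without the microRNAs miR-143 and miR-145. Ldha was counted with these other forms, although it prevails in glycolytic muscle and stands as the muscle form in the ratio over Ldhb below. The 10 genes were chosen by name, with the knockout against wild type difference of Eno3 on these arrays already known, and each was read from its brightest probe set with a single gene symbol. Of the 10 genes, 9 were measured among 19296 genes in all. For Eno1 no probe set carried a single symbol in the annotation used, so the general form of enolase was not analysed here. The members were thus selected on the same contrast that the text reports, and on their mean log2 value for the choice of probe set, so their differences are given as a description.

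RNA came from whole ureter of male mice of a 129Sv/C57BL6 mix, with 1 array for each mouse and 2 mice in each group. The miR-143/145-/- mice, called knockout, were 2.5 months old and had hydronephrosis, a swelling of the kidney with retained urine. The miR-143/145+/+ mice, called wild type, were 4.5 months old and had normal kidneys. Genotype, age and kidney state changed together and cannot be told apart, and the sources used here do not say how the deletion was made or in which cells. The knockout ureters had 6.48 and 6.53 for Mir143 and 4.60 and 5.02 for Mir145a, against 7.64 and 7.85 and 8.28 and 8.42 in wild type, on the log2 scale of all expression values below. All 4 knockout values lay under the background level of 6.58, the level under which the means of 95% of the 1024 olfactory receptor genes fell. Array medians lay between 7.81 and 7.89. The labelled tissue carried its defining markers. The smooth muscle list had 13 of 13 genes above background and the urothelium list 15 of 15, and 13 of 13 adipocyte markers were above it too. By the same rule 14227 of all 19296 genes were above background, so these counts alone do not mark out a tissue.

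Glycogen is the glucose store of muscle. Glycogen synthase lengthens its chains, glycogen phosphorylase releases glucose units from them, and the glycolytic enzymes turn these into pyruvate, which lactate dehydrogenase interconverts with lactate. Many of these steps have a form made mainly in striated muscle and others made in liver, brain or most cells. Smooth muscle is known for a high rate of lactate production even with oxygen present, and enolase switches from Eno1 to Eno3 as skeletal muscle fibres mature.

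The stretches before the starts of Eno3, Pygm and Pgam2 are shown because the first and the second of these genes stood higher in knockout ureter and the third, also a muscle form, did not. They are the 250 bases before each start, 5′ to 3′, from RefSeq on build GRCm38.p6. Capitals mark matches on either strand to the E-box, CANNTG, which factors of the MyoD family bind, to the MCAT box, CATTCC, which factors of the TEAD family bind, and to the site of MEF2 factors. No marked matches overlap.
Eno3, chr11:70656926-70657175, plus strand: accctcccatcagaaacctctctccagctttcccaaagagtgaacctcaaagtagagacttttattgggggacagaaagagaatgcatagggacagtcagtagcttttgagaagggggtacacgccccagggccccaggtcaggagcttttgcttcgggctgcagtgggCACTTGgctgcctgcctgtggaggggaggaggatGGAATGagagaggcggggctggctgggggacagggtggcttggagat
Pygm, chr19:6384158-6384407, plus strand: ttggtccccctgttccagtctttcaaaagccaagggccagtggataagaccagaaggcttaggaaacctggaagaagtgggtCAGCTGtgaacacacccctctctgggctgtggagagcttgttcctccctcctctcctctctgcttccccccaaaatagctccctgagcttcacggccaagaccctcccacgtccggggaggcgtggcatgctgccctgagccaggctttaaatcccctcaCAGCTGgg
Pgam2, chr11:5803797-5804046, minus strand: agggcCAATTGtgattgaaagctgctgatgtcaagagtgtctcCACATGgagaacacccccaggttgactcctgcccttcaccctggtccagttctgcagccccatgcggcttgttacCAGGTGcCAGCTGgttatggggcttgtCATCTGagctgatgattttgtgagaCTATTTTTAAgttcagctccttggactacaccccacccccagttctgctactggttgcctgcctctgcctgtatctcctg

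The Eno3 stretch held 1 E-box and 1 MCAT box, the Pygm stretch held 2 E-boxes, and the Pgam2 stretch held 5 E-boxes and 1 MEF2 site. The stretch of Eno2, the neuronal form, also held 1 E-box and 1 MCAT box, and some windows of Eno1 held an MCAT box too. An E-box stood in 66.2% of the 32851 promoter windows of the same length, an MCAT box in 12.6% and a MEF2 site in 2.92%. The CArG box, the site of serum response factor, stood in 1.47% of windows and in none of those of the members. The Gys1 stretch held 1 E-box and 2 GC boxes (GGGCGG), and that of Pygl 3 GC boxes and no E-box. A GC box stood in 32.7% of windows. The matches are a description of these letters and not sites shown to be used.

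Eno3 and Pygm stood apart from the rest of the enzymes. Eno3 makes beta-enolase, which forms phosphoenolpyruvate late in glycolysis, and Pygm makes the phosphorylase of muscle. Knockout ureter had about 4-fold the wild type value of the first and nearly 2-fold that of the second. Of the 9 measured members, 2 rose in knockout ureter at an adjusted p of 0.05 in a limma fit over all genes, 0 fell and 7 did not pass. Before adjustment p was under 0.05 for 3 members with higher values and 1 with lower values. Of all genes tested 2.38% passed, 1.90% higher and 0.477% lower, and before adjustment 26.5% had p under 0.05, 12.7% higher and 13.8% lower. Since this contrast was known when the members were listed, nothing is read from these counts. The smallest log2 difference of either sign that passed over all genes was 0.59, so a miss at a smaller difference does not show that the groups were alike.

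**Figure D1:**
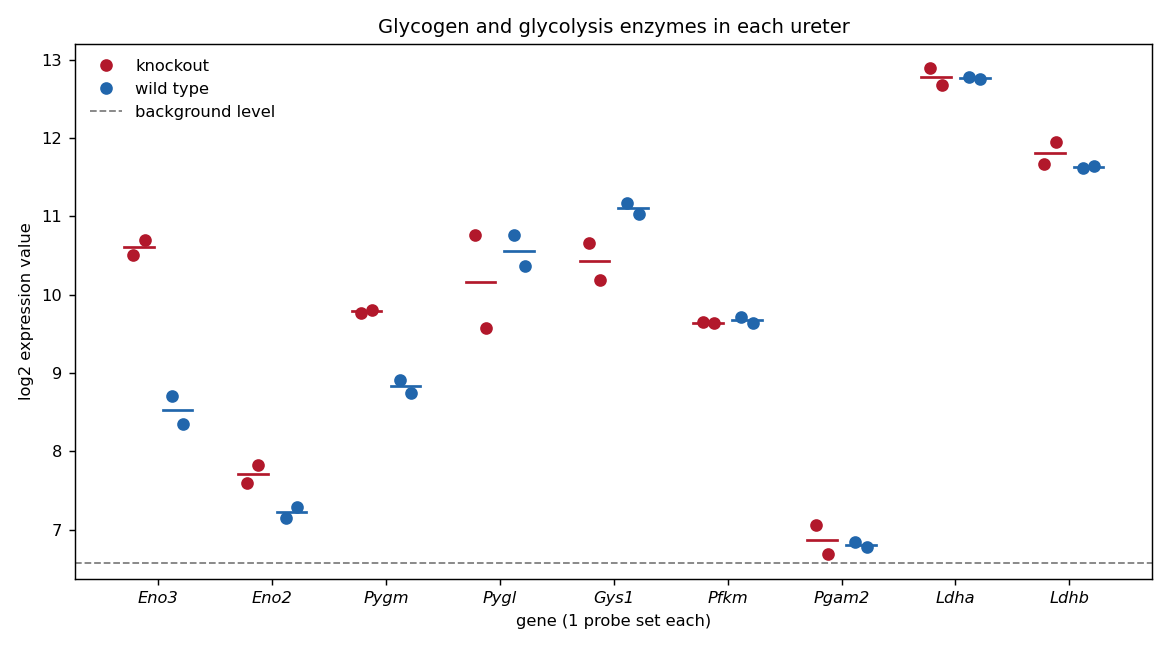
Expression on the log2 scale (vertical axis) of the 9 measured enzymes (horizontal axis) in each ureter; points are mice, short lines are the means of 2 knockout (left, red) and 2 wild type mice (right, blue), and the dashed line is the background level of 6.58. Eno3, Pygm, Eno2 and Ldhb are higher in both knockout ureters than in either wild type ureter, and Gys1 is lower. The levels of different genes are not comparable.

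Eno3 (probe set 10377938) had 10.51 and 10.70 in the knockout ureters, against 8.70 and 8.35 in the wild type ureters. Its mean was 10.61 ± 0.14 in knockout and 8.53 ± 0.25 in wild type (SD, n = 2 each), a log2 difference of 2.08 (SE 0.15) or 4.22-fold. The gap between the groups was several times that between mice of the same group, and the difference ranked 7 from the top among 19296 genes. Because the samples are bulk tissue, more cells that make Eno3 and more Eno3 RNA per cell cannot be told apart.

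Pygm (probe set 10460947) had 9.76 and 9.81 in knockout ureters, against 8.91 and 8.75 in wild type ureters. The knockout mean was 9.79 ± 0.03 and the wild type mean 8.83 ± 0.12 (SD, n = 2 each), which gave a log2 difference of 0.96 (SE 0.12), or 1.94-fold. The mice of each group lay close together and the groups did not overlap. With wild type replicate 1 or wild type replicate 2 left out, so that a lone wild type mouse is taken to vary like the others, limma passed 0 of 19296 genes and neither call held, although p before adjustment was under 0.05 for 4253 and 3079 genes. In the fits that left out each mouse in turn, the log2 difference of Eno3 stayed between 1.90 and 2.25 and that of Pygm between 0.87 and 1.04.

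The other muscle forms did not pass. Pfkm (probe set 10426557), the muscle form of phosphofructokinase, the main control point of glycolysis, had 9.65 and 9.64 in knockout ureters, against 9.71 and 9.64 in wild type ureters. Its groups overlapped, and the log2 difference was -0.03 (SE 0.11). Pgam2 (probe set 10384015), the muscle form of phosphoglycerate mutase, acts in the step before enolase. It had 7.06 and 6.68 in knockout ureters, against 6.84 and 6.77 in wild type ureters. These values were little above background and overlapped, with a log2 difference of 0.06 (SE 0.15).

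Gys1, which makes the glycogen synthase of muscle and most other tissues, was lower in value in knockout ureter. Gys1 (probe set 10552945) had 10.66 and 10.19 in knockout ureters, against 11.17 and 11.03 in wild type ureters, a log2 difference of -0.68 (SE 0.17) that did not pass over all genes. The groups did not overlap, but the knockout mice differed from each other by more than the wild type mice did. Without knockout replicate 1 the gene passed with a difference of -0.91, and without knockout replicate 2 the difference was -0.44. Over the 5 muscle forms, the log2 differences thus ran between -0.68 and 2.08 with a median of 0.06, beside a median of -0.02 over all genes.

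Of the forms named for other tissues or for cells in general, Eno2 was the one with the highest log2 difference. Eno2 (probe set 10547807), the enolase of neurons and neuroendocrine cells, had 7.59 and 7.83 in knockout ureters, against 7.15 and 7.29 in wild type ureters. The knockout values were the higher ones without overlap, at a log2 difference of 0.49 (SE 0.13) that did not pass. Pygl (probe set 10400844), the phosphorylase of liver, had 10.76 and 9.58 in knockout ureters, against 10.76 and 10.36 in wild type ureters. A single mouse, knockout replicate 2, was low for Pygl, and the difference of -0.39 (SE 0.35) became 0.20 without it and -0.98 without knockout replicate 1, where it passed.

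Lactate dehydrogenase was bright in every ureter. Ldha (probe set 10553301), the subunit that prevails in glycolytic muscle, had 12.89 and 12.67 in knockout ureters, against 12.78 and 12.75 in wild type ureters, a log2 difference of 0.02 (SE 0.13) with overlapping groups. Ldhb (probe set 10462035), the subunit that prevails in heart, had 11.67 and 11.95 in knockout ureters, against 11.61 and 11.64 in wild type ureters, a log2 difference of 0.19 (SE 0.13). It was the only measured member with a second probe set (10549097), which gave 11.28 and 11.44 in knockout, against 11.06 and 11.22 in wild type, a log2 difference of 0.22. Both probe sets of Ldhb were slightly higher in both knockout mice. Over the 4 measured genes counted as other forms, Ldha among them, the differences ran between -0.39 and 0.49 with a median of 0.10. Limma passed 0 of them. Before adjustment p was under 0.05 for 1 of the 4, or 25%, against 26.5% of all genes.

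In 5 of the 9 members the groups did not overlap, 4 with knockout higher and 1 with knockout lower. Such a gap was common on these arrays: 60.0% of all genes had one, 28.0% with knockout higher and 32.0% with knockout lower.

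Whether a muscle form moved against another form of the same enzyme was read from their log2 ratio within each ureter. Of the 9 pairs set up, 8 were measured, and 2 mice against 2 allow no exact test under 0.05, so the ratios are a description. The level of a ratio depends on its probe sets, and each is therefore given relative to its wild type mean. Eno3 over Eno2 stood at 1.61 and 1.57 in the knockout ureters, against 0.25 and -0.25 in the wild type ureters, or 3.01-fold higher on average in knockout. Pygm over Pygb, the brain form of phosphorylase, stood at 0.85 and 0.97 in knockout, against -0.00 and 0.00 in wild type. Pygm over Pygl was 0.73 and 1.96 in knockout, against -0.12 and 0.12 in wild type. The ratios of Eno3 and Pygm over each measured partner were thus higher in both knockout mice. The contrast was known when the members were listed, and Eno1 was not measured, so no shift between forms is read from these ratios.

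Phosphofructokinase showed no such gap. Pfkm over Pfkl, the liver form, was -0.18 and 0.32 in knockout, against -0.12 and 0.12 in wild type. Pfkm over Pfkp, the platelet form, was 0.17 and 0.44 in knockout, against -0.18 and 0.18 in wild type, and both pairs overlapped. Pgam2 over Pgam1, the general form of the mutase, was 0.35 and 0.31 in knockout, against 0.01 and -0.01 in wild type, a small gap that came from Pgam1 at a log2 difference of -0.27 more than from Pgam2. Gys1 over Gys2, the synthase of liver, ran the other way at -0.99 and -0.73 in knockout, against 0.12 and -0.12 in wild type. Ldha over Ldhb overlapped, with 0.08 and -0.41 in knockout, against 0.03 and -0.03 in wild type.

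**Figure D2:**
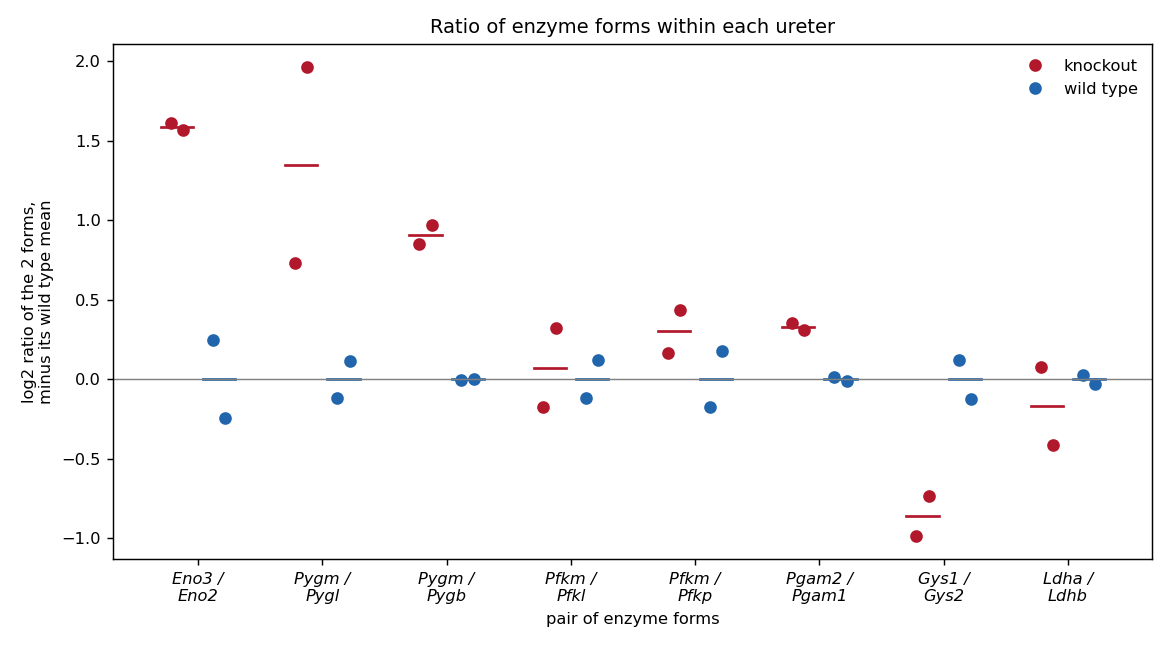
Log2 ratio of 2 forms of an enzyme within each ureter, minus its mean over the wild type mice (vertical axis), for the 8 measured pairs (horizontal axis); points are mice, short lines are means, with knockout (red) to the left of wild type (blue). The ratios of Eno3 over Eno2, of Pygm over Pygl and Pygb, and of Pgam2 over Pgam1 are higher in both knockout ureters. That of Gys1 over Gys2 is lower, and those of Pfkm and of Ldha over Ldhb overlap.

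No other measured step of glycolysis passed beside Eno3. Of 19 listed genes for its steps beside the members, 15 were measured, and limma passed 0. Before adjustment 1 gene with a higher and 4 with a lower value had p under 0.05, or 33.3% of the list, against 26.5% of all genes. The list's median log2 difference was -0.24, against -0.02 over all genes. Hk1, the hexokinase of most tissues, had 10.06 and 10.24 in knockout ureters, against 9.54 and 9.58 in wild type ureters (log2 difference 0.59, limma adjusted p = 0.0565). Hk2, the hexokinase of muscle and fat, reported as a target of miR-143 in human cancer cells, had 10.23 and 9.50 in knockout, against 10.75 and 10.28 in wild type (log2 difference -0.65, adjusted p = 0.167). The hexokinase genes thus differed in opposite directions, neither past the threshold.

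Aldoa, the aldolase of muscle and most cells, differed by -0.23 on the log2 scale (adjusted p = 0.397), and Pkm, the pyruvate kinase of most tissues, differed by 0.01 (adjusted p = 0.983). Ldhd, a mitochondrial enzyme that oxidises D-lactate, differed by -0.65 (adjusted p = 0.101). Pklr, the pyruvate kinase of liver and red cells, was below background in knockout and at least 1.19-fold lower there without passing (adjusted p = 0.131), the wild type mean being set against the background level. Next to enolase in the chain, Pgam1 and Pgam2 before it and Pkm after it gave differences between -0.27 and 0.06, beside the 2.08 of Eno3. Pklr, which also acts after enolase, is not placed against this range. It was below background in knockout, so only the bound of at least 1.19-fold lower given above is known.

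Of the other measured genes of glycogen metabolism, 13 had lower and 9 higher values in knockout. Of these 22 genes, 1 fell and 0 rose, which left 21 that did not pass, where 0.477% of all genes fell and 1.90% rose. The median log2 difference was -0.16. Before adjustment 2 genes with a higher and 7 with a lower value had p under 0.05, or 40.9%, against 26.5% of all genes. The gene that fell was Ppp1r3d, a subunit that carries protein phosphatase to glycogen, where it favours synthesis. Ppp1r3d had 8.33 and 8.36 in knockout ureters, against 8.90 and 9.02 in wild type ureters, a log2 difference of -0.62 (SE 0.12, limma adjusted p = 0.0495). The call stood at the edge of the threshold. It was lost without knockout replicate 2 (adjusted p = 0.0674), with array weights (adjusted p = 0.0509) and without either wild type mouse.

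Ppp1r3b, another phosphatase subunit of glycogen, had 9.37 and 8.71 in knockout, against 10.08 and 10.02 in wild type (log2 difference -1.01, adjusted p = 0.0566). Gyg, the protein that primes a new glycogen chain, had 10.63 and 10.003 in knockout, against 11.11 and 11.22 in wild type (log2 difference -0.85, adjusted p = 0.0715). Pgm1, which links glucose 1-phosphate to glycolysis, had 10.52 and 10.28 in knockout, against 11.13 and 10.94 in wild type (log2 difference -0.63, adjusted p = 0.0625). With Gys1, these genes were lower in value in both knockout mice, and in all 4 knockout replicate 2 had the lowest value. Ppp1r3d had the other order, with 8.33 in knockout replicate 1 and 8.36 in knockout replicate 2. Ppp1r3b, Gyg and Pgm1 were named for their small p, so a gap between their groups follows largely from that choice. Of the 22 genes, 11 were lower and 6 higher without overlap, against 32.0% and 28.0% of all genes. Pygb differed by 0.05 (adjusted p = 0.844) and Gys2 by 0.18 (adjusted p = 0.635).

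**Figure D3:**
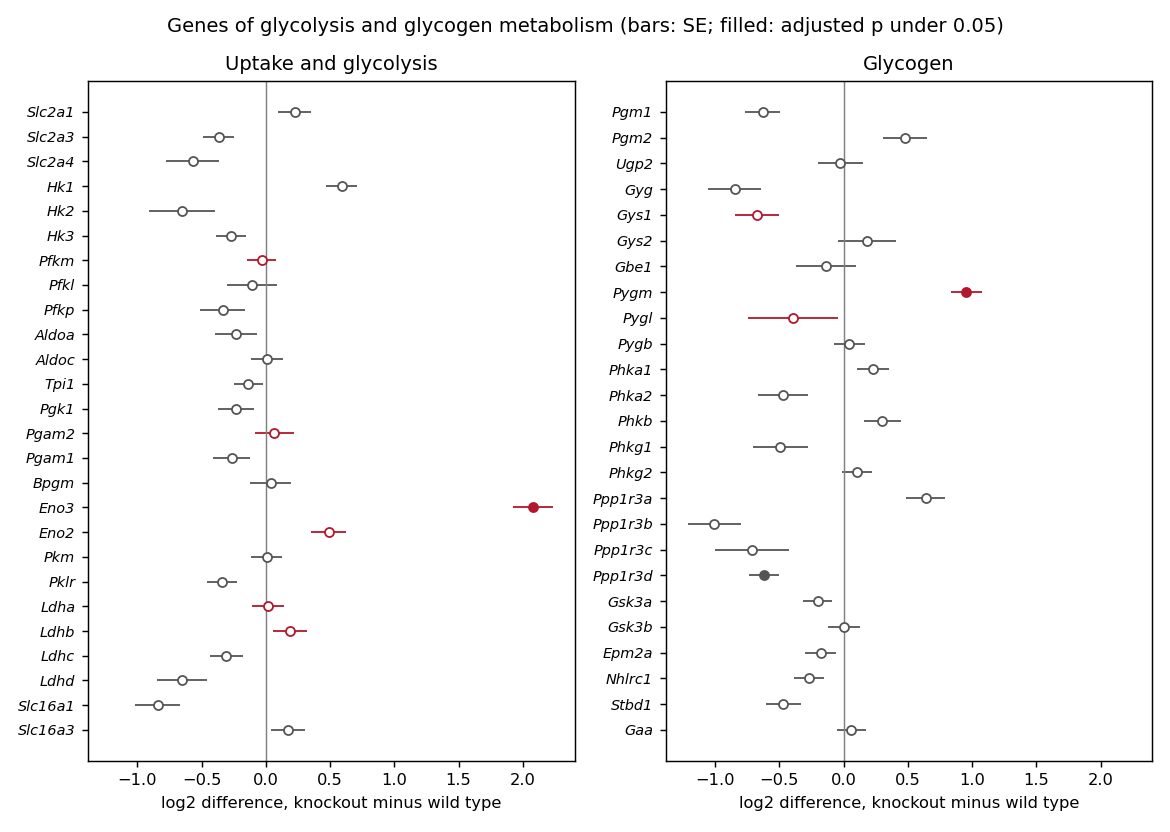
Log2 difference, knockout minus wild type (horizontal axis), of measured genes of glucose uptake and glycolysis (left) and glycogen metabolism (right), in pathway order down the page; bars are the moderated SE, red marks the listed enzymes and filled points passed an adjusted p of 0.05. Eno3 at 2.08 and Pygm at 0.96 lie to the right of all other genes shown, and Ppp1r3d at -0.62 is the filled point on the left.

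Of 17 measured genes for transport and for the control of glycolysis and glucose synthesis, limma passed 0, and the median difference was 0.08. Before adjustment 4 genes with a higher and 5 with a lower value had p under 0.05, or 52.9%, against 26.5% of all genes. Slc16a1, a transporter of lactate and pyruvate, had a log2 difference of -0.84 (adjusted p = 0.0567). The kinases that switch off pyruvate dehydrogenase parted, with Pdk3 at 0.67 (adjusted p = 0.0605) and Pdk2 at -0.61 (adjusted p = 0.0662). Fbp1, a gluconeogenic enzyme of liver and kidney tubule, had 10.65 and 10.11 in knockout, against 9.20 and 9.62 in wild type (log2 difference 0.97, adjusted p = 0.0627). Pfkfb3, which makes the activator of phosphofructokinase, had 11.44 and 9.65 in knockout, against 11.26 and 11.46 in wild type (log2 difference -0.81, adjusted p = 0.328). As with Pygl, only knockout replicate 2 was low for Pfkfb3.

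Among 12 measured regulators of muscle genes, 2 rose, 0 fell and 10 did not pass, where 1.90% of all genes rose and 0.477% fell. Before adjustment p was under 0.05 for 2 genes with higher and 3 with lower values, or 41.7%, against 26.5% of all genes. Myocd, the coactivator of smooth muscle genes, rose to 10.49 and 10.34 in knockout ureters, against 9.41 and 9.41 in wild type ureters (log2 difference 1.01, SE 0.12, limma adjusted p = 0.0208). Six4, a homeobox factor that acts on fast muscle genes in mouse skeletal muscle, rose to 8.26 and 8.18 in knockout, against 7.30 and 7.52 in wild type (log2 difference 0.81, SE 0.13, adjusted p = 0.0368). Both calls were lost without either wild type mouse. Myog, a factor of skeletal muscle differentiation, was below background in knockout and at least 1.26-fold lower (adjusted p = 0.0560), and Esrra, a nuclear receptor of energy metabolism, differed by -0.37 (adjusted p = 0.121). Mef2a, Mef2c and Mef2d, which make MEF2 factors, had log2 differences of -0.01, 0.01 and 0.21, and none passed.

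Markers of skeletal muscle, where Eno3 and Pygm are most abundant, did not pass beside them. Of 30 such markers, 13 were below background on every array, among them the fast myosin genes Myh1, Myh2 and Myh4. The list mean was 6.82 and 6.78 in knockout ureters, against 6.95 and 7.03 in wild type ureters, with 26 of 30 genes lower in value, and limma passed 0. Before adjustment 1 marker with a higher and 11 with a lower value had p under 0.05, or 40.0%, against 26.5% of all genes. The 13 markers below background are included in this mean and in these counts. Of the 11 with a lower value, only Acta1, Tnni1 and Mb lay above background in both groups. The brightest of the 30 markers were Ckm, Myl1 and Acta1. Ckm, the creatine kinase of muscle, had 10.28 and 9.94 in knockout, against 9.87 and 9.67 in wild type (log2 difference 0.34, adjusted p = 0.212). Myl1 differed by -0.36 (adjusted p = 0.237) and Acta1 by -0.44 (adjusted p = 0.137). Neuron markers, which bear on Eno2, had means of 6.51 and 6.57 in knockout, against 6.65 and 6.68 in wild type, and 6 of 13 were below background on every array. Among the brightest of them, Uchl1 differed by 0.44 (adjusted p = 0.118), Syp by -0.29 (adjusted p = 0.312) and Stmn2 by 0.06 (adjusted p = 0.847).

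Most smooth muscle markers and all urothelium markers measured had higher values in knockout beside Eno3 and Pygm. The smooth muscle list of 13 genes had means of 11.66 and 11.50 in knockout, against 11.41 and 11.34 in wild type, and a median difference of 0.24, with 11 genes higher and 2 lower in value. The lower ones were Des, the muscle intermediate filament desmin, at -0.30 and Synpo2 at -0.23, named after their values were seen. Its brightest genes Acta2, Myl9 and Myh11 had differences of 0.17, 0.18 and 0.35. The urothelium list of 15 genes had means of 11.99 and 12.35 in knockout, against 11.39 and 11.68 in wild type, with 15 of 15 higher in value and a median difference of 0.64. Its highest single difference was 1.001, above the 0.96 of Pygm; Upk1a, Upk1b and Krt8 differed by 0.42, 0.38 and 0.53. Limma passed 0 of the 13 smooth muscle and 2 of the 15 urothelium markers, against 2.38% of all genes. Before adjustment 5 smooth muscle markers (38.5%) and 15 urothelium markers (100%) had p under 0.05, each with a higher value, against 26.5% of all genes in either direction and 12.7% with a higher value. The part of these cell types in the rise of Eno3 and Pygm was not tested.

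Adipocyte markers were lower in knockout, most of all in knockout replicate 2, beside the lower values of Gys1, Gyg and Ppp1r3b. Ppp1r3d, the glycogen gene that passed, was not lowest in that mouse, with 8.33 and 8.36 in knockout replicates 1 and 2. Pygl was low in knockout replicate 2 only, and its groups overlapped. The list of 13 genes had means of 12.53 and 12.07 in knockout, against 12.79 and 12.72 in wild type, with 12 of 13 lower in value. Limma passed 0 of them. Before adjustment 8 with lower values had p under 0.05, or 61.5%, against 13.8% of all genes with lower values. The brightest were Lpl at -0.53, Fabp4 at -0.28 and Ucp1, the uncoupling protein of brown fat, at 0.02. Kidney markers were high in knockout replicate 1, with list means of 8.45 and 6.60 in knockout, against 6.47 and 7.22 in wild type, and Kap, a kidney androgen-regulated gene, ran at 11.42 and 7.81 in knockout, against 6.19 and 9.25 in wild type. Slc34a1, a phosphate transporter of the proximal tubule, had 10.62 and 7.33 in knockout, against 7.33 and 8.65 in wild type, and Aqp2, the water channel of the collecting duct, differed by -0.34. In knockout replicates 1 and 2, Eno3 had 10.51 and 10.70, and Pygm had 9.76 and 9.81. The part of adipocytes in the lower values of Gys1 in knockout and of Pygl in knockout replicate 2 was not tested. Nor was that of kidney tissue in the values of Eno3 and Pygm.

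**Figure D4:**
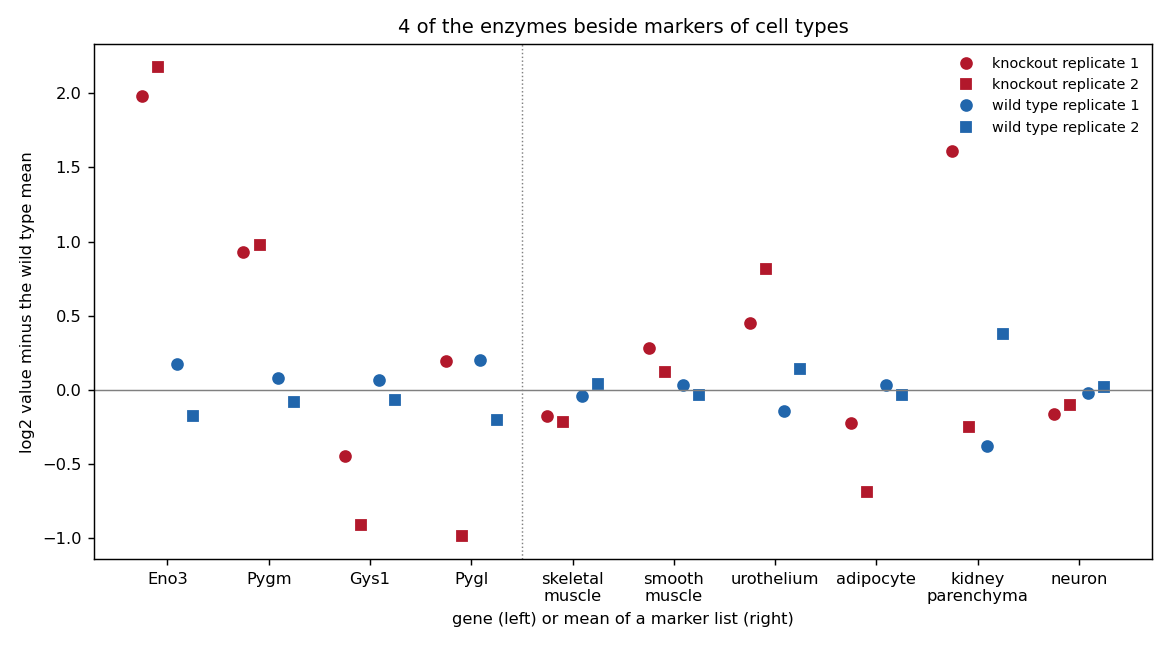
Log2 value minus the wild type mean (vertical axis) of Eno3, Pygm, Gys1 and Pygl (left of the dotted line) and of the means of 6 lists of cell type markers (right of it); red is knockout, blue wild type, circles replicate 1 and squares replicate 2. The mean of the skeletal muscle markers is slightly lower in both knockout ureters, with 13 of these 30 markers below background on every array. Adipocyte markers and Gys1 are lowest in knockout replicate 2, and kidney markers are highest in knockout replicate 1.

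The genes beside the members on their chromosomes were compared with the members, with the order of genes from the GRCm38.p6 table. Of 36 neighbours, the 2 nearest measured genes on either side of each member, 1 passed, against 2.38% of all genes. The neighbours' median log2 difference was 0.02. Around Eno3, which lies on chromosome 11, the differences were -0.03 for Rnf167, 0.12 for Pfn1, 0.02 for Spag7 and 0.06 for Camta2. Around Pygm, on chromosome 19, they were 0.10 for Men1, 0.08 for Sf1, -0.06 for Rasgrp2 and -0.34 for Nrxn2, and none of these 8 passed. The neighbour that passed was Abcc9, a potassium channel subunit gene near Ldhb, at 0.83 (adjusted p = 0.0316), while Gys2 on the other side of Ldhb differed by 0.18.

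The 5 genes above background whose values over the 4 arrays, each centred on its mean, lay nearest to those of Eno3 were Adam28, Armh4, Lum, Angptl7 and Otogl. Their root mean square differences from Eno3 were 0.18 for Adam28 and 0.23 for Otogl, with the others in between, on the log2 scale. Adam28, a membrane metalloprotease, had 9.20 and 9.53 in knockout ureters, against 7.04 and 7.04 in wild type ureters. Lum, a proteoglycan of collagen fibrils, had 11.97 and 12.26 in knockout, against 10.56 and 10.27 in wild type. None of the 5 is in the lists of glycolysis or glycogen genes, and likeness over 4 arrays is a description of size and direction only.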

How the data were processed

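Expression was measured on an Affymetrix whole-transcript mouse array from ureter RNA of 4 mice. The authors deposited log2 values for each of 23309 probe sets; the submitters' processing notes list RMA with R 2.15.0 and limma 3.12.1, and no source used here states a genome build for the probe sets. RMA makes the distributions of arrays alike, which shrinks any change that most genes share. The annotation gave 1 symbol to 20728 probe sets, several to 1174 and none to 1407. The brightest probe set of each gene with 1 symbol left 19296 genes, of which 14227 lay above background in at least 1 genotype. Knockout and wild type were compared by lmFit and eBayes of limma 3.58.1 (R 4.3.3); p-values were adjusted by Benjamini-Hochberg over the 19296 genes, with a threshold of 0.05. Every adjusted p is from this fit, SE is its moderated standard error, and a fold for a group below background is a bound against that level. The fit was tested on simulated data. Arrays have no counting depth, and 2 mice per genotype limit the precision. The labels call the mice biological replicates. Settings tried beside it were leaving out each mouse, the replicate number as a block, leaving out dim genes, 2 other scalings, the mean of probe sets, other eBayes settings, array weights and another threshold.

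The members and gene lists were chosen with earlier results of these data known. Named genes are the members, the partner forms, the 4 of smallest p above background in each pathway list, with Hk2, Pkm, Aldoa and Pfkfb3, the 3 brightest in each cell type list and the 5 nearest to Eno3; Mef2 genes, the fast myosins and the neighbours were named outside it. Some listed genes are not reported here. Promoter stretches were matched by symbol for all 10 members.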

Additional observations from a re-analysis of the deposited data

How the results depend on the processing

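Over all genes 459 passed, 367 higher and 92 lower in knockout. The count was 215 with a further quantile normalization, 902 with robust eBayes and 2299 at an adjusted p threshold of 0.1, and it ranged between 0 and 1744 with each mouse left out in turn. Centring each array on its median gave 245 higher and 148 lower genes and moved the median difference of all genes to -0.09. Same-numbered mice did not deviate together (correlation of deviations -0.03 over 19296 genes), so the numbers are not taken to pair the mice. With the replicate block 1922 genes passed, 4 of the members and 19 of the genes in the 3 pathway lists, the regulators and the hypoxia list. In the fit without the block 2 members and 3 such genes passed. At a threshold of 0.1 these counts were 4 and 15. Leaving out each mouse gave 0 to 5 members and 0 to 22 of the other genes. With robust eBayes 11 of those other genes passed, and with dim genes filtered out 7. The calls of Eno3 and Pygm held in each of these settings other than the fits without a wild type mouse. Of 64 named genes, all 64 kept their side of the threshold with a further quantile normalization. With that normalization the ratio of Pygm over Pygb differed by 0.79 in place of 0.91 and that of Pgam2 over Pgam1 by 0.44 in place of 0.33. The cause of these shifts was not tested.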

Other observations

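Genes of the response to low oxygen, some of which act with glycolysis, were also measured. Of 10 such genes limma passed 0, and the median log2 difference was 0.15. Before adjustment 1 gene with a higher and 1 with a lower value had p under 0.05, or 20% of the list, against 26.5% of all genes. Bnip3, a mitochondrial protein, had 11.66 and 11.01 in knockout ureters, against 12.12 and 12.02 in wild type ureters (adjusted p = 0.0924). Adm, the peptide adrenomedullin, had 8.83 and 9.20 in knockout, against 8.54 and 8.50 in wild type (adjusted p = 0.101). Hif1a and Kdm3a both differed by 0.29 (adjusted p = 0.190 and 0.195). Of 6 red blood cell genes 2 were measured, and Alas2, the haem synthesis enzyme of red cells, differed by -0.88 (adjusted p = 0.0715) and Slc4a1 by -0.41 (adjusted p = 0.175).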
